A study of Rattus norvegicus with 12 samples.

Results

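Of the 19955 genes in a table of rat heart RNA, 10 were followed that take up fatty acids, burn them in mitochondria or switch these steps on. They were chosen by Ensembl gene ID for what the genes are known to do. The rule itself uses no measured values, but the choice was made with earlier results of these data known. The rats were wild-type Sprague Dawley animals in 3 groups. The sham group had surgery without an infarct, the MI group had a myocardial infarction, and the Patch group had cardiac patches sutured to the edge of the infarct. Tissue is labelled heart throughout, and the series title speaks of left ventricular myocardium. The labels give no age, no time after surgery and no position relative to the infarct, and do not say whether each library is a separate animal, so p-values measure the spread between libraries.

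The labels list 12 samples, 4 per group. By column name, 2 libraries could be assigned to sham (sham1, sham2), 4 to MI (MI1, MI2, MI162, MI165) and 4 to Patch (P695, P697, P699, P985). A further 2 columns, ctrl1 and ctrl2, match no label by name and were not used. Whether they hold the other 2 of the 4 labelled sham samples is not stated, so each comparison with sham rests on 2 libraries. Each library held 11420710 to 14110864 reads. MI2 stood apart from the rest: 5474 genes were at 0 reads in it, against 2400 to 3335 in the other 9 libraries. Counts of calls and the difference of each gene are therefore also given without MI2. Signal is the authors' read count scaled by a single factor per library. It is not divided by gene length, so levels are compared between libraries and not between genes.

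The heart muscle cell draws most of its energy from fatty acids. Lipoprotein lipase frees them from circulating triglyceride, CD36 carries them across the cell membrane, and FABP3 holds them in the cytosol. CPT1B couples them to carnitine for entry into the mitochondrion. Inside, the acyl-CoA dehydrogenases VLCAD, LCAD and MCAD open each round of beta-oxidation on chains of decreasing length, and the trifunctional protein carries out the next steps on long chains. PPAR alpha, a nuclear receptor that binds fatty acids, and its coactivator PGC-1 alpha drive transcription of these enzymes. A fall of this programme and a turn to glucose is a well-known feature of the failing heart.

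Of the 10 genes, 7 fell after infarction and the same 7 were higher in Patch than in MI: Lpl, Fabp3, Cpt1b, Acadvl, Acadl, Acadm and Hadha. The regulators Ppara and Ppargc1a did not pass the threshold in either comparison, nor did Cd36. No gene passed between Patch and sham. In both comparisons with MI, the number of the 10 genes called ranged from 0 to 8 when a single library was left out. Calls are at a Benjamini-Hochberg adjusted p under 0.05, over 17091 genes, in limma on log2(signal + 1). All 10 genes passed the filter on low signal. Of all genes tested, 8.12% fell in MI and 7.72% were higher in Patch than in MI, and 15.4% and 13.2% were called in either direction. The comparisons share the 4 MI libraries, so the values of each are set side by side and are not independent of each other.

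The stretch of 250 bases before the transcription start is shown for the genes that moved together and have an entry in RefSeq's GRCr8 promoters (Fabp3, Acadvl, Acadm and Hadha), and for Ppara, their regulator that did not pass. Capitals mark matches on either strand to motifs of regulators of this pathway or of the general promoter machinery. The motifs were AGGTCA, the core bound by nuclear receptors, a direct repeat of AGGTCA with any 1 base between the copies, which PPAR binds, TCAAGGTCA, which oestrogen-related receptors bind, and GGGCGG, the GC box. The repeat and TCAAGGTCA both contain AGGTCA. Positions are Fabp3 chr5:147935875-147936124, plus strand, Acadvl chr10:55236706-55236955, minus strand, Acadm chr2:245542865-245543114, minus strand, Hadha chr6:31907551-31907800, plus strand, and Ppara chr7:118712357-118712606, plus strand.
Fabp3: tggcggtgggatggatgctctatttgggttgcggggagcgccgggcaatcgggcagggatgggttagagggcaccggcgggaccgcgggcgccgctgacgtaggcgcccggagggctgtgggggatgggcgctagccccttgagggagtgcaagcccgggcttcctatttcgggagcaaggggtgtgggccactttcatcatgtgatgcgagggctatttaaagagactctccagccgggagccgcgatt
Acadvl: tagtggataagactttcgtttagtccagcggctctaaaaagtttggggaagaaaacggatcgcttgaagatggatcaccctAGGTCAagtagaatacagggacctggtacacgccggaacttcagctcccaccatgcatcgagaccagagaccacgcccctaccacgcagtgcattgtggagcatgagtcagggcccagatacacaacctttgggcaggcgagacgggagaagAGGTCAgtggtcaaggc
Acadm: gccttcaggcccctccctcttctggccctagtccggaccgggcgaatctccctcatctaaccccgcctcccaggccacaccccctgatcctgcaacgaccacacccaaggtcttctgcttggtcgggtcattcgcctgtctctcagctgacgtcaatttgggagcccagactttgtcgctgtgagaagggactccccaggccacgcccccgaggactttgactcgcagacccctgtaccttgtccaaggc
Hadha: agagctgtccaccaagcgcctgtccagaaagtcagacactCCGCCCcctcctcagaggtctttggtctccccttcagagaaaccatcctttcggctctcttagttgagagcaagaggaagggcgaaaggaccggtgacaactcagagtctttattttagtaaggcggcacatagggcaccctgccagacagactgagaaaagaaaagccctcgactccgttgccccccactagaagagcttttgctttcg
Ppara: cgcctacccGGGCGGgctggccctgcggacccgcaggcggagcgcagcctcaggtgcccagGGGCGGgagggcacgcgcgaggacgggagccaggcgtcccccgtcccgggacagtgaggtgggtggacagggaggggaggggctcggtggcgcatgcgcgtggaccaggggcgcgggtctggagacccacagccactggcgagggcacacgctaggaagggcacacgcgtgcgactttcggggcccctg

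Among the 10 genes, 7 had a promoter entry, these 5 and Cd36 and Ppargc1a. Lpl, Cpt1b and Acadl had none. The direct repeat was in 0 of the 7 windows and in 0.0508% of all 33469 windows, and the oestrogen-related receptor motif in 0 of 7 and 0.388%. AGGTCA was in 1 of 7, Acadvl, at 169 to 164 and 17 to 12 bases before the start, and in 14.1% of all windows. The GC box was in 2 of 7, Hadha and Ppara, at 210 to 205 bases before the start in Hadha and at 241 to 236 and 189 to 184 in Ppara, and in 30.5% of all. These matches describe the letters of the windows and nothing about binding.

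MI was compared with sham to find what differs after infarction, and Patch with MI to find what differs with the patch. Lpl (ENSRNOG00000012181) encodes the lipase that supplies fatty acids from the capillary. Its signal was 54359.8 and 58298 in sham1 and sham2, 9869, 35848, 14555 and 23272 in MI1, MI2, MI162 and MI165, and 53403, 49378, 39587 and 45218 in P695, P697, P699 and P985. Every MI library lay below every sham and every Patch library, and MI2 came closest to them. Lpl fell 3.03-fold in MI (95% interval 1.45 to 6.33, limma adjusted p 0.0473) and was 2.51-fold higher in Patch than in MI (1.37 to 4.58, limma adjusted p 0.0490). These were the calls nearest to the threshold. With a pseudocount of 5 in place of 1 Lpl no longer passed (limma adjusted p 0.0513 and 0.0528, range over 24 alternatives 0.00267 to 0.230 and 0.00385 to 0.139). Of all reads, Lpl alone took 0.401% and 0.434% in sham, 0.0886% to 0.298% in MI and 0.316% to 0.394% in Patch.

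Fabp3 (ENSRNOG00000012879), the heart-type fatty acid binding protein, had the largest difference of the 10 in both comparisons. Its signal was 52484.5 and 38282 in sham, 7546, 23312, 8076 and 15940.1 in the MI libraries, and 48142, 32279.8, 32880.3 and 35573 in Patch, in the order of libraries used for Lpl. In MI1 and MI162 it stood at 16.6% and 17.8% of the sham mean. MI did not overlap with sham or Patch, although the sham libraries also lay far apart. Fabp3 fell 3.65-fold in MI (1.80 to 7.43, limma adjusted p 0.0242) and was 2.99-fold higher in Patch than in MI (1.68 to 5.34, limma adjusted p 0.0256).

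Cd36 (ENSRNOG00000005906), the membrane fatty acid translocase, is known as an abundant protein of heart muscle, but this ID held only 6 to 42 reads per library. Its signal was 22.2 and 22.1 in sham, 7.90, 5.58, 34.9 and 23.6 in MI, and 8.99, 10.05, 17.9 and 10.2 in Patch. The MI libraries spanned both other groups, with MI162 the highest of all 10 libraries and MI2 the lowest. Neither difference passed (log2 −0.62, SE 0.70, limma adjusted p 0.591 for MI against sham, and −0.28, SE 0.57, limma adjusted p 0.775 for Patch against MI). RefSeq lists further genes named after Cd36, Cd36l1 and Cd36-ps1, on the same chromosome close to it. How the authors' counting treated reads shared by such copies is not given in the sources used here, and the rows of the copies were not identified. The values of this ID are therefore uncertain as a measure of Cd36 RNA, and the part of such copies in them was not tested.

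Cpt1b (ENSRNOG00000010438) encodes the muscle carnitine palmitoyltransferase, the gate through which long-chain fatty acids enter mitochondria. Its signal was 8262 and 7771 in sham, 1940.1, 6041, 2591 and 3779 in MI, and 8601, 7169.9, 6562 and 7247 in Patch. MI2 lay just below the lowest Patch library, and the other 3 MI libraries were at 24.2% to 47.1% of the sham mean. Cpt1b fell 2.45-fold in MI (1.42 to 4.22, limma adjusted p 0.0340) and was 2.25-fold higher in Patch than in MI (1.44 to 3.51, limma adjusted p 0.0288).

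The acyl-CoA dehydrogenases fell 2.60- to 2.89-fold in MI. Acadvl (ENSRNOG00000018114, very long chains) was at 12797 and 10359 in sham, at 2944, 6563, 2923 and 4473 in MI, and at 11284, 8883, 8296 and 9385 in Patch. Its fall, 2.89-fold (1.79 to 4.65, limma adjusted p 0.0133), had the smallest adjusted p of the 10 genes, as did its 2.36-fold difference between Patch and MI (1.60 to 3.48, limma adjusted p 0.0171). Acadl (ENSRNOG00000012966, long chains) was at 24543 and 21600.4 in sham, at 5982, 16870, 5755 and 10612 in MI, and at 23962, 21778, 18029.9 and 19771 in Patch. It fell 2.60-fold in MI (1.41 to 4.80, limma adjusted p 0.0417) and was 2.34-fold higher in Patch than in MI (1.42 to 3.87, limma adjusted p 0.0357). In MI2 it kept 73.1% of the sham mean, against 24.9% to 46.0% in the other 3 MI libraries.

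Acadm (ENSRNOG00000009845, medium chains) was at 16003 and 14125 in sham, at 4461, 9881, 3878 and 5944 in MI, and at 18173.5, 12411, 12964 and 13662 in Patch. P695 lay above both sham libraries and the other 3 Patch libraries lay below them. Acadm fell 2.66-fold in MI (1.58 to 4.48, limma adjusted p 0.0217) and was 2.50-fold higher in Patch than in MI (1.64 to 3.83, limma adjusted p 0.0176). Hadha (ENSRNOG00000024629) encodes the alpha subunit of the trifunctional protein. It was at 13912 and 14085 in sham, at 3700.2, 4832, 7134 and 9651 in MI1, MI162, MI165 and MI2, and at 14712, 11836, 11648 and 13341 in Patch. It fell 2.36-fold (1.42 to 3.92, limma adjusted p 0.0307) and was 2.16-fold higher in Patch than in MI (1.43 to 3.28, limma adjusted p 0.0268), the smallest difference among the 7 called genes in both comparisons.

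**Figure D1:**
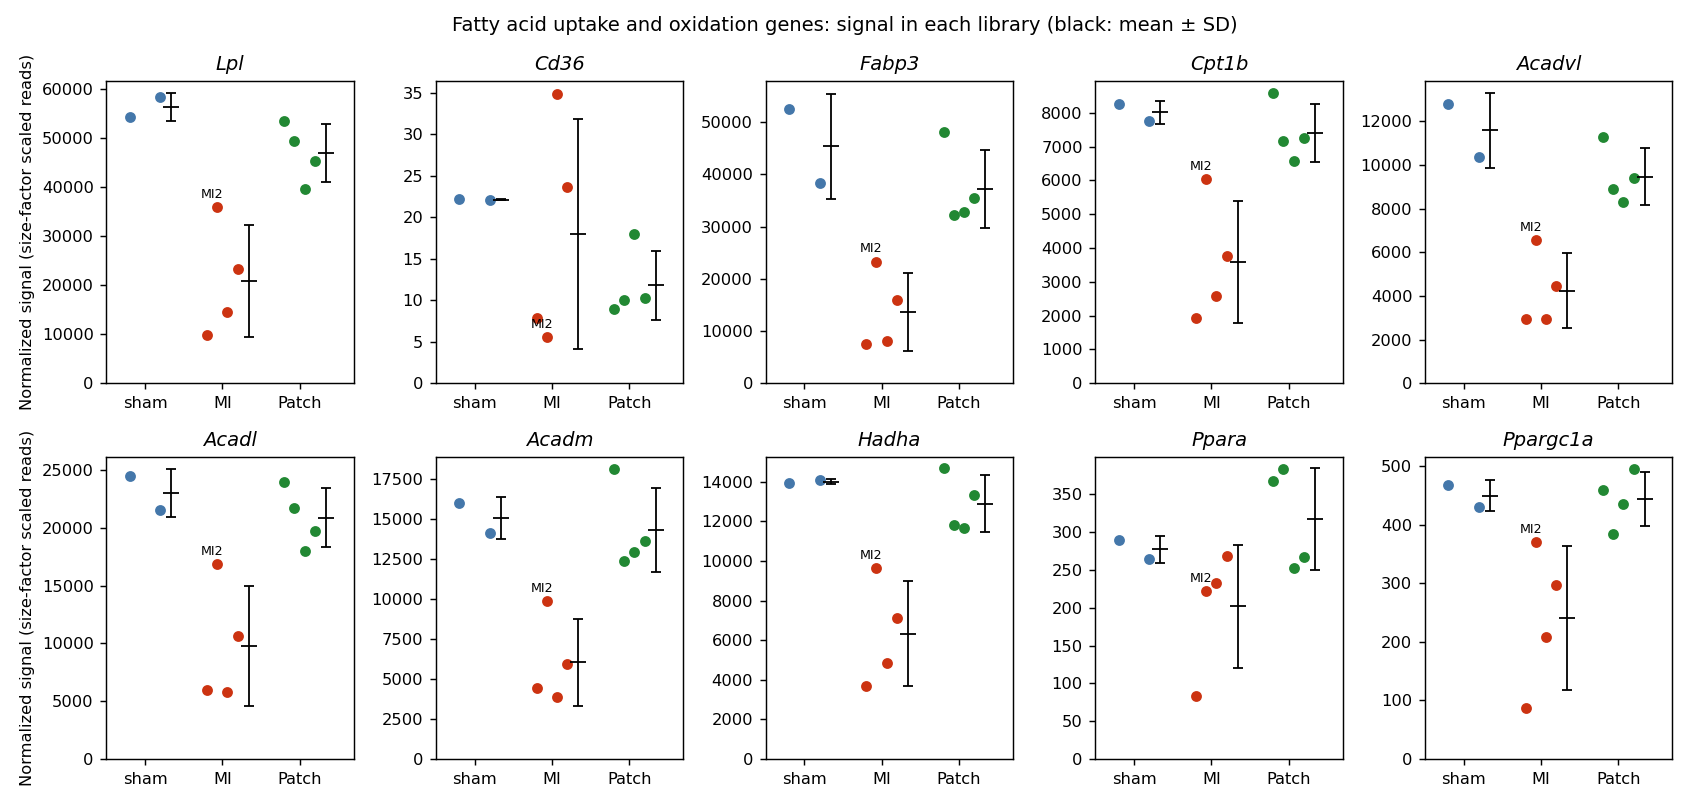
Normalized signal of each of the 10 genes (vertical axis from 0, one scale per gene) in the sham, MI and Patch libraries. Coloured points are libraries and black marks show mean ± SD (n = 2, 4 and 4). For 8 genes all MI points lie below all sham and Patch points, with MI2 the highest MI point, while Ppara and Cd36 overlap.

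The regulators did not pass in either comparison. Ppargc1a (ENSRNOG00000004473), the coactivator of mitochondrial genes, was at 467 and 430.02 in sham, at 86.9, 371, 208 and 296 in MI, and at 459, 384, 435 and 495 in Patch. MI lay below both other groups without overlap, but MI2 reached 82.6% of the sham mean and MI1 only 19.4%. The differences did not pass (log2 −1.08, SE 0.44, limma adjusted p 0.117, and 1.06, SE 0.36, limma adjusted p 0.0721). Without MI2 both passed, at log2 −1.35 and 1.33 (limma adjusted p 0.0272 and 0.0141, ranges over 24 alternatives 0.0157 to 0.373 and 0.00464 to 0.164).

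Ppara (ENSRNOG00000021463), the receptor itself, was at 290 and 265 in sham, at 82.9, 222, 233 and 269 in MI, and at 367, 383, 252 and 267 in Patch. Only MI1 was far below sham. MI162 and MI165 stood at 84.2% and 96.9% of the sham mean for Ppara, where they stood at 17.8% to 34.5% and 35.1% to 51.0% for the 7 called genes. The differences were log2 −0.58 (SE 0.40, limma adjusted p 0.357) and 0.75 (SE 0.33, limma adjusted p 0.145), and 0 of 24 alternatives put either past the threshold. Their 95% intervals, −1.47 to 0.30 and 0.035 to 1.47, include the log2 differences measured for Cpt1b and Hadha.

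Whether genes changed by unequal amounts was tested through 9 ratios, each of the other genes to Cpt1b within a library, with a two-sided exact permutation test of the library values. Fabp3 had the smallest p between Patch and MI. Its log2 ratio to Cpt1b was 1.91 ± 0.19 (SD, n = 4) in MI, 2.32 ± 0.13 (SD, n = 4) in Patch and 2.48 ± 0.26 (SD, n = 2) in sham. It was higher in 4 of 4 Patch libraries than in any MI library (exact p 0.0286, the smallest that 4 against 4 can give, adjusted over the 9 ratios 0.257). The Lpl ratio was higher by 0.16 in Patch (exact p 0.0571, adjusted 0.257), and the other 7 ratios had exact p of 0.143 to 0.857. Between MI and sham, 3 of the 9 ratios did not overlap, and they did not all lie the same way. The Ppara ratio was higher in MI, at −4.14 ± 0.61 (SD, n = 4) against −4.85 ± 0.03 (SD, n = 2) in sham. The Lpl ratio was lower in MI, at 2.51 ± 0.12 (SD, n = 4) against 2.81 ± 0.13 (SD, n = 2), and so was the Fabp3 ratio, by 0.58. Each of the 3 had an exact p of 0.133 (adjusted 0.400), the smallest that 4 against 2 libraries can give. No ratio passed after adjustment, which does not show that the genes moved by equal amounts.

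**Figure D2:**
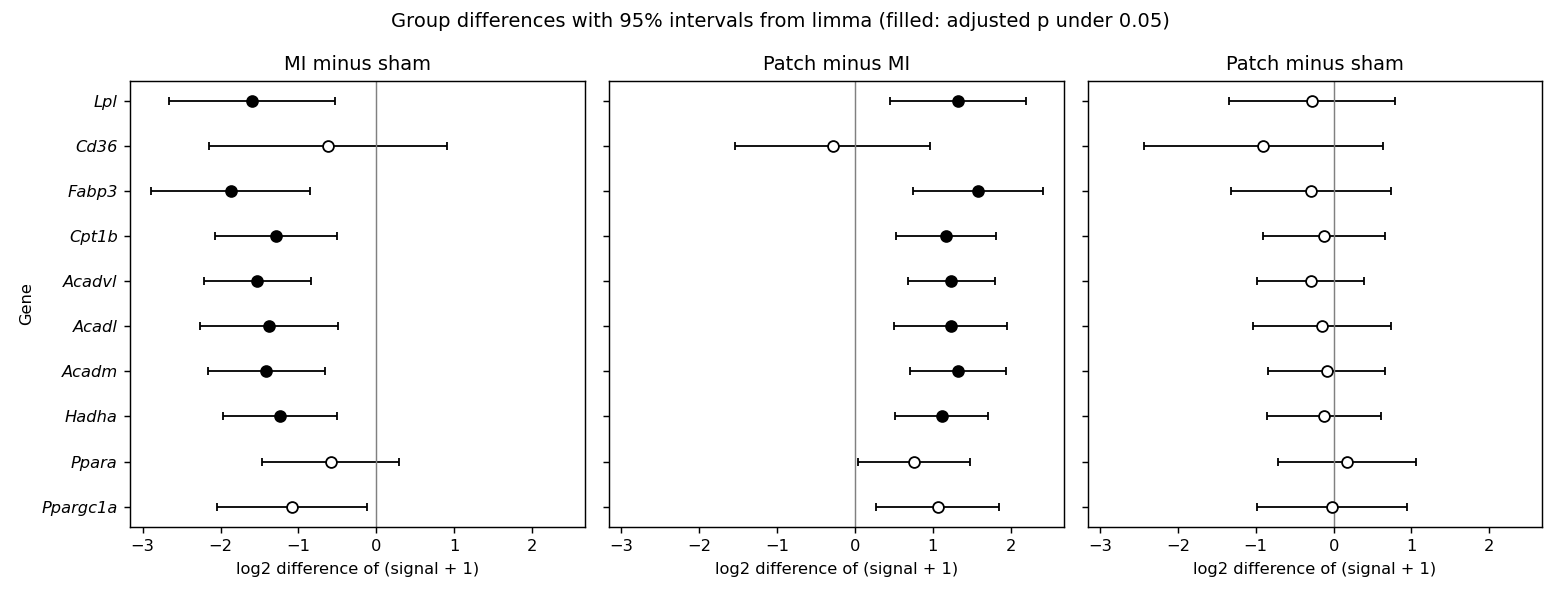
Differences in log2(signal + 1) for MI minus sham, Patch minus MI and Patch minus sham (horizontal axes), with 95% intervals from limma, for each of the 10 genes. Filled points passed an adjusted p under 0.05: 7 genes fell in MI, the same 7 were higher in Patch, and none passed against sham.

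Over the 10 genes, the median log2 difference was −1.33 in MI against sham and 1.20 in Patch against MI, where the medians of all genes tested were 0.01 and 0.0023. Without regard to p, MI and sham did not overlap in 8 of the 10 genes, all lower in MI, against 18.6% of all genes. MI and Patch did not overlap in 8, all higher in Patch, against 9.81% of all genes. The 10 genes together took 1.35% and 1.23% of all reads in sham, 0.329% to 0.905% in MI and 1.04% to 1.32% in Patch. In bulk tissue, fewer cells of a type and less RNA per cell cannot be told apart. Marker genes of heart muscle or other cell types were not read here, since the table pairs no IDs with symbols, so the part of cell composition in these differences was not tested.

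The share of the sham level that remained was also read library by library. Among the 9 genes other than Cd36, the median percent of the sham mean was 25.4% in MI1, 25.8% in MI162, 46.0% in MI165 and 68.9% in MI2. MI2 was the highest MI library for 8 of the 9, and MI1 the lowest for 6 and MI162 for 3. In Patch the medians were 105.1% in P695, 85.6% in P697, 81.9% in P699 and 90.4% in P985. P695 was the highest for 7 of the 9 and P699 the lowest for 6. Over the 10 libraries the 36 pairs among these 9 genes correlated at 0.648 (Acadm with Ppara) to 0.996 (Fabp3 with Acadvl), with a median Pearson r of 0.971. After each group's mean was removed, the range was 0.340 to 0.988, for the same pairs, and the median 0.909. These correlations describe genes measured in the same libraries, whose depth and scaling they share. Cd36 correlated with the other 9 at −0.233 to 0.208 over the 10 libraries, and at −0.615 to 0.349 after each group's mean was removed.

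**Figure D3:**
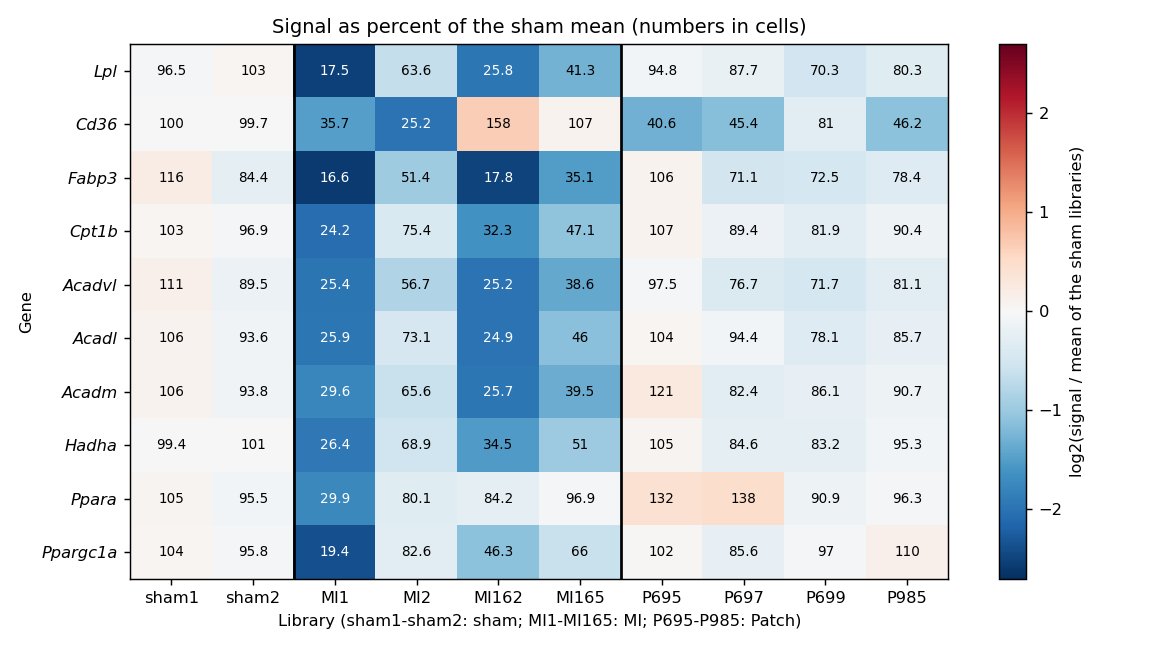
Signal of each gene (rows) in each library (columns) as a percent of the mean of sham1 and sham2, written in the cells and coloured on a log2 scale, blue for lower and red for higher. MI1 and MI162 are darkest across the enzymes, MI2 is lightest among MI, Ppara is near the sham mean in MI162 and MI165, and Cd36 follows its own pattern.

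The calls depended on single libraries. Each count is given beside the number called over all genes, which was 2636 for MI against sham and 2251 for Patch against MI in the reported fit. For MI against sham, 0 of the 10 passed without sham1 (7 over all genes) and 0 without sham2 (24 over all genes), where the lone sham library was assumed to vary like the other groups. Further, 2 of the 10 passed without MI162, 3 without P985, 4 without P697 and 8 without MI2, where 1448, 1931, 1990 and 4979 passed over all genes. The log2 differences of the 7 genes lay between −2.18 and −1.01 in the fits that left out a library. For Patch against MI, 0 of the 10 passed without P695, 0 without P985, 1 without MI162, 2 without P697 and 8 without MI2, where 209, 292, 649, 611 and 4821 passed over all genes. The log2 differences of the 7 genes lay between 0.89 and 1.89. A fit of only the sham and MI libraries called 0 of the 10, and 599 over all genes. In it the limma adjusted p of the 7 genes ranged from 0.0597 to 0.155. The reported fit shares a single spread per gene over all 3 groups, so its calls of MI against sham also drew on Patch. For each of the 7 genes, the SD relative to the mean was smaller in Patch than in MI (11.6% and 50.3% for Cpt1b). edgeR called 5 and 4 in the comparisons (13.5% and 10.5% of all genes), and DESeq2 called 7 and 7 (22.9% and 21.5%).

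Without MI2, the differences of the 7 genes from the other groups were larger. In log2, MI against sham and Patch against MI were −1.91 and 1.64 for Lpl, −2.18 and 1.89 for Fabp3, and −1.59 and 1.46 for Cpt1b. They were −1.77 and 1.48 for Acadvl, −1.69 and 1.54 for Acadl, −1.68 and 1.59 for Acadm, and −1.48 and 1.35 for Hadha. The limma adjusted p of the 7 ranged from 0.000767 to 0.00399 and from 0.000692 to 0.00385. Ppara still did not pass, at −0.67 and 0.84 (limma adjusted p 0.265 and 0.102), nor did Cd36, at −0.22 and −0.68 (limma adjusted p 0.814 and 0.332). The calls of the 7 genes were not equally firm. Of 24 alternatives, MI against sham and Patch against MI passed in 9 and 9 for Lpl, 9 and 13 for Acadl, 14 and 19 for Cpt1b, and 17 and 19 for Hadha. They passed in 19 and 20 for Fabp3, 19 and 21 for Acadm, and 20 and 22 for Acadvl. The adjusted p of Acadl ranged from 0.00191 to 0.227 and from 0.00162 to 0.109 over them, edgeR and DESeq2 included.

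Column names are numbered in different styles, and what the numbers stand for is not stated: sham1, sham2, MI1 and MI2 have a single digit, and MI162, MI165 and all Patch columns have 3. Style and group cannot be told apart for sham and Patch, so the comparisons were repeated with the MI libraries of the matching style. With MI1 and MI2 against sham, 0 of the 10 passed, and 1204 over all genes, and the 7 genes differed by log2 −1.76 to −1.18. With MI162 and MI165 against Patch, 9 of the 10 passed, and 6103 over all genes. The 9 were the 7 genes, by log2 1.13 to 1.69, Ppargc1a, by 0.83, and Cd36, which was lower in Patch (log2 −1.26, limma adjusted p 0.0392).

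**Figure D4:**
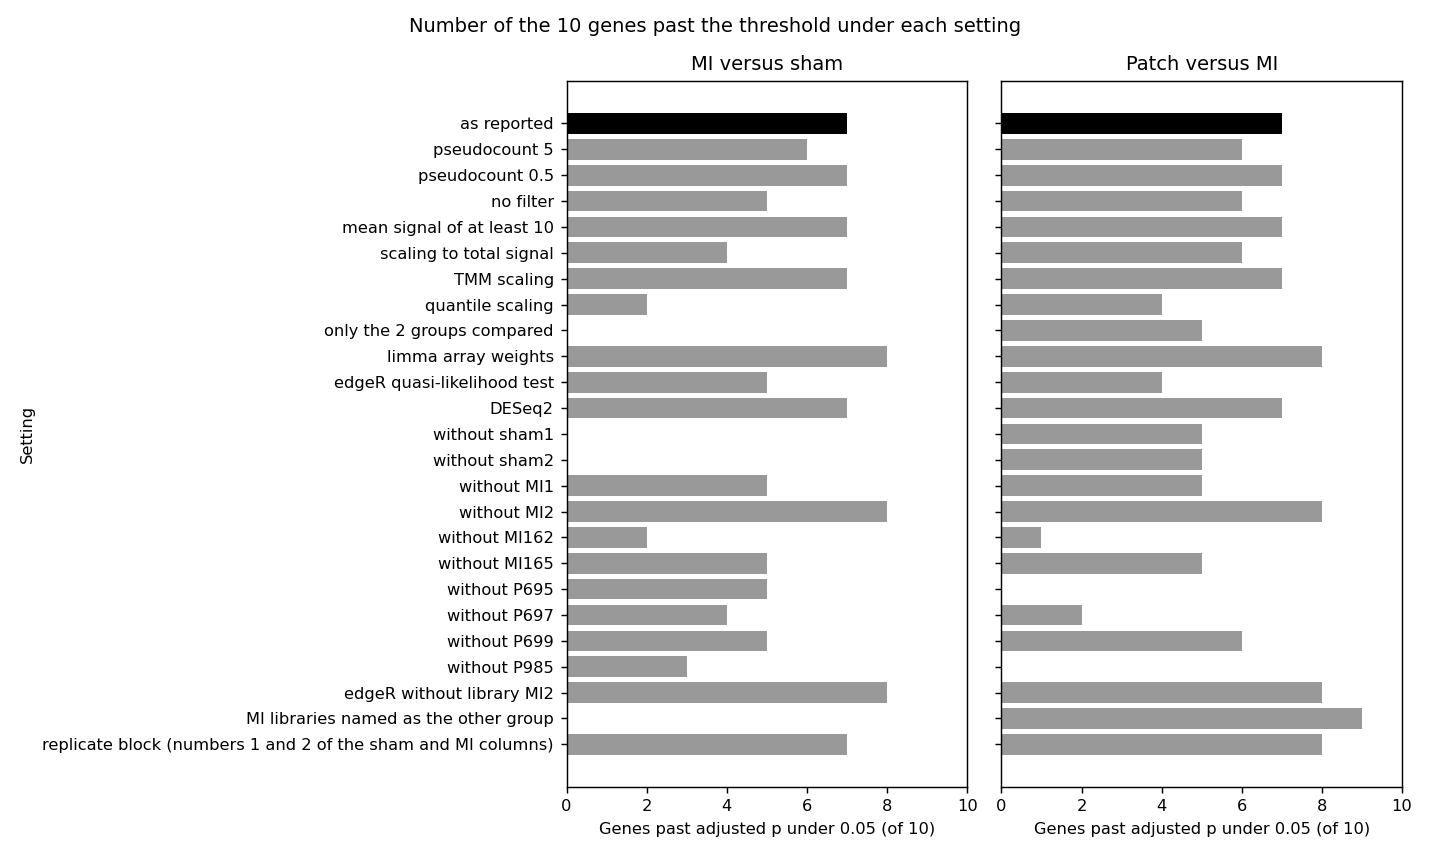
Number of the 10 genes past an adjusted p under 0.05 (horizontal axis) under each setting (rows) for MI against sham and Patch against MI. Black bars are the reported fit and grey bars the alternatives, which range from 0 to 8 for MI against sham and from 0 to 9 for Patch against MI.

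Patch was compared with sham to see what still differed from surgery without an infarct. In limma 0 of the 10 genes passed, and 0% of all genes did. At an unadjusted p under 0.05 in limma there were also 0 of the 10, against 3.07% of all genes. edgeR and DESeq2 called 0 of the 10, and 0% and 0.0878% of all genes. The log2 differences ran from −0.90 for Cd36 to 0.17 for Ppara, with a median of −0.14. Lpl and Cd36 were lower in all 4 Patch libraries than in both sham libraries, against 9.37% of all genes. For the 7 genes that fell in MI, the 95% intervals of Patch over sham ran from 0.396 to 1.73 for Lpl, the widest, to 0.507 to 1.31 for Acadvl, the narrowest. The lower ends of the intervals of all 7 lay between 0.396 (Lpl) and 0.559 (Acadm) of the sham level, so equality of Patch and sham is not shown.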

How the data were processed

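RNA libraries of rat heart were prepared from polyadenylated RNA with random-hexamer priming and PCR, per the labels' protocols, without molecular identifiers. The authors deposited a normalized signal per Ensembl gene ID and library. The submitters' processing notes name HISAT2, SAMtools, featureCounts, DESeq2 and the build rn6. Their settings, strand use and annotation are not given in the sources used here. Within each library the deposited signal was a whole multiple of a single step for 100% of values (within 0.01 of a whole read), so reads were recovered by division. Columns were assigned to groups by name. The 2 columns that match no label were not used.

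The 10 genes and all lists were chosen with earlier results of these data known. Symbols of the 10 IDs came with that choice. No table used here pairs the IDs with symbols (0 of 19955 matched), so the 7 pathway lists and 8 marker lists that were prepared could not be read. By the naming rule all 10 genes were to be named. The 17091 genes whose signal averaged 1 or more entered a single limma fit of log2(signal + 1) over all 3 groups, with a mean-variance trend and no covariates (limma 3.58.1, R 4.3.3). Differences on this scale understate changes of low genes. edgeR 4.0.16 (quasi-likelihood) and DESeq2 1.42.0 were run on the recovered reads, and other pseudocounts, filters, scalings, weights and fits without each library in turn were tried. Ratios and figures were made in Python 3.11.15 with scipy 1.17.1 and matplotlib 3.10.9. Promoter motifs were chosen after looking at matches in these windows.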

Additional observations from a re-analysis of the deposited data

Results flagged for a closer look

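Each of the 10 genes was screened for a library far from the other 3 of its group, in MI and in Patch, which made 20 sets, and 1 set had such a library, where chance gives about 1 in 20. Cd36 had a signal of 17.9 in P699, where the next Patch library had 10.2. These are 18 and 10 reads.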

How the results depend on the processing

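The directions of the 7 called genes held in all 24 alternatives of MI against sham and of Patch against MI. Of the 10 genes, 7 were called in MI against sham (2636 over all genes). Scaling to total signal gave 4 (3043 over all genes), and quantile scaling gave 2 (2321 over all genes). The count was 0 with only the 2 groups compared (599 over all genes). It was also 0 with MI1 and MI2 as the only MI libraries (1204 over all genes). Both of these fits used fewer samples. Leaving out an MI or Patch library gave 2 to 8. For Patch against MI, 7 of the 10 were called (2251 over all genes). Quantile scaling gave 4 (2181 over all genes) and edgeR gave 4 (1802 over all genes), and leaving out a library gave 0 to 8. The cause was not tested. Over all genes, the 2636 calls of MI against sham became 599 with only these groups, 5679 with array weights (MI2 had the lowest, 0.193), 4692 in edgeR without MI2, 1204 with MI1 and MI2 alone, and 7 (without sham1) to 4979 (without MI2) when a library was left out. The 2251 calls of Patch against MI became 1437, 5383, 4643 and, with MI162 and MI165 alone, 6103, as well as 3679 in DESeq2, and 209 (without P695) to 4821 (without MI2). Patch against sham, at 0, became 10 with array weights, 15 in DESeq2 and 0 to 2 without a library. Scaling to total signal moved the median of all genes to 0.24 in MI against sham and −0.17 in Patch against MI, where the 7 genes differed by −1.63 to −0.997 and 0.94 to 1.40. Under it 73.5% of calls in MI were higher, against 47.3%, and 30.2% in Patch, against 58.6%. Differences that did not pass changed sign for Ppargc1a in Patch against sham (0.042 with total signal, and −0.082 to 0.045 when a library was left out, above 0 without sham1, at 0.038, or P697), Acadm there (−0.21 to 0.0013, above 0 without sham1) and Cd36 (−0.68 to 0.13 in Patch against MI, above 0 without MI162, and 0.011 in MI against sham in edgeR without MI2). Depth limits Cd36, with 6 reads at the lowest. The edgeR fit without MI2 and the fits by style of column number and with the replicate block were added after the data were seen. Centring on heart muscle markers and the pathway lists were not run, because the IDs have no symbols here. The 1 and 2 of the sham and MI column names could be replicate numbers, while the numbers of MI162, MI165 and all Patch columns match none in the labels. With these numbers as a replicate block, 7 and 8 of the 10 genes passed in the comparisons with MI (Ppargc1a was the addition, limma adjusted p 0.0453 in Patch against MI), 2752 and 2380 over all genes, and 1 gene in Patch against sham. The deviations of sham1 and MI1 from their pair's mean correlated at 0.024 over genes. Each pair holds only 2 libraries, and MI2 stood apart from the rest, so this value cannot decide whether the numbers mark pairs.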
